A study of Mus musculus with 6 samples.

Results

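The renin-angiotensin system genes described here were 8 of the 23183 gene symbols measured in brain microvessels, listed by symbol, with earlier results of these data known. They were *Agt*, *Ace*, *Agtr1a*, *Agtr2*, *Enpep*, *Lnpep*, *Atp6ap2* and *Agtrap*. All 8 symbols had 1 value in each of 6 RNA sequencing libraries. The libraries came from C57BL/6 mice, 3 from WT mice carrying TEK-cre with Crif1+/+ and 3 from TEKCRIF1 KO mice carrying TEK-cre with Crif1 flox/flox, so that both groups carried the Cre transgene and neither served as a Cre-free control. The *Tek* promoter drives Cre in endothelial cells and is also known to be active in blood-forming cells. No treatment was given, and the age of the sequenced mice is not given in the sources used here. *Crif1*, named *Gadd45gip1* in the files, encodes a protein of the mitochondrial ribosome. The comparison asked whether the levels of these genes in the vessel preparation differed after its endothelial deletion.

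The renin-angiotensin system makes and removes a small peptide hormone that raises vascular tone. Renin cuts angiotensinogen to angiotensin I, angiotensin-converting enzyme trims this to angiotensin II, and angiotensin II acts on the type 1 receptor to constrict vessels and on the type 2 receptor, whose actions often oppose those of the type 1 receptor. Aminopeptidases on the cell surface shorten angiotensin II further. In brain, astrocytes are the main known source of angiotensinogen, and converting enzyme is carried by endothelial cells and choroid plexus.

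The 8 genes lie at scattered positions of the mouse genome (GRCm38, GENCODE M21). *Agt* lies on the minus strand of chromosome 8 (124556534 to 124569706, 5 exons in its longest transcript), and *Ace* on the plus strand of chromosome 11 (105967945 to 105989964, 25 exons). *Agtr1a* is on chromosome 13 (30336441 to 30382867, plus strand) and *Agtr2* on chromosome X (21484544 to 21489164, plus strand). *Enpep* is on chromosome 3 (129269175 to 129332720, minus strand), *Lnpep* on chromosome 17 (17521410 to 17625050, minus strand), *Atp6ap2* on chromosome X (12587801 to 12617049, plus strand) and *Agtrap* on chromosome 4 (148077061 to 148088031, minus strand). The values are per symbol and cover whole transcripts, so they do not separate alternative starts or isoforms.

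RefSeq start sites (GRCm38.p6) were given for 7 of the 8 genes, and *Agtr1a* had none. The sequences below are the 30 bases from 40 to 11 before each annotated start, 5′ to 3′ on the gene's strand, and are shown because they separate the genes by the letters in front of the start. Capitals mark TATAA or TATATA, searched on the gene's strand between 40 and 20 bases before the start, where the pair may overlap.
Agt, chr8:124569717-124569746, minus strand: accccttgagTATAAataagcctgcttggc
Ace, outer start, chr11:105967908-105967937, plus strand: tggctgggtttTATAAtccgcagggcggtc
Ace, inner start, chr11:105975149-105975178, plus strand: gcaggcttggctcttattggccggtgatgg
Agtr2, chrX:21484584-21484613, plus strand: ggacagagcgaaTATATAAgaaggaaacca
Enpep, chr3:129332760-129332789, minus strand: tcgctccagttcagaaggggcaggcctggg
Lnpep, chr17:17624500-17624529, minus strand: cctccccggcagccctcggaggcctttgct
Atp6ap2, chrX:12587719-12587748, plus strand: cgctcgtgtagcggcgtagttggcgattgg
Agtrap, chr4:148088075-148088104, minus strand: cgccgtctcctagcaaccggctgcagtcac
*Agt*, the outer *Ace* start and *Agtr2* held a match, and the other genes had none. Among all 32851 promoters in the RefSeq set, 3.64% held one in the same window, and among the 13715 promoters of genes tested here 2.12% did. The inner *Ace* start lies inside the gene and outside the exons of its longest transcript, at the known position of the testis form of the enzyme. The *Agtr2* and *Lnpep* stretches lie inside the longest GENCODE transcript, so the RefSeq start lies downstream of the GENCODE start for these genes. By the coordinates given, the starts also differ for *Enpep*, *Atp6ap2* and *Agtrap*, where the RefSeq start lies outside the GENCODE gene, and slightly at the outer *Ace* start. In the 250 bases before the start, CG dinucleotides numbered 0 for *Agt*, 3 for *Agtr2*, 6 for *Enpep*, 12 for *Agtrap*, 20 for *Atp6ap2* and 25 for *Lnpep*, with 19 and 1 at the outer and inner *Ace* starts. The median was 6 over all promoters and 15 over those of genes tested. These counts describe letters, and a match is not a shown binding site.

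Depth was estimated from the spacing of low values as 6400000 to 11700000 fragments a library, at which 3 fragments on a 1-kb transcript are worth 0.256 to 0.469 FPKM (fragments per kilobase of transcript, scaled to a fixed number of mapped fragments). The targeted gene, *Gadd45gip1*, had 18.8, 15.3 and 16.5 FPKM in WT 1, 2 and 3 and 10.8, 7.54 and 10.4 FPKM in KO 1, 2 and 3. Every KO library was below every WT library, as the labels require, with a log2 fold change of −0.77 (SE 0.22, limma adjusted p = 0.841). Among the markers of endothelial cells, pericytes, smooth muscle, astrocytes, neurons, microglia, oligodendrocytes, choroid plexus and meningeal fibroblasts, none was at 0 in all libraries. Beside those given with the genes below, the markers with an unadjusted limma p under 0.05 were *Syn1* and *Slc17a7* (2 of 7, neurons), *Mag*, *Mobp* and *Cnp* (3 of 6, oligodendrocytes) and *Hbb-bs* (1 of 3, erythroid cells), all lower in KO mice, beside 3.11% of all genes tested, and none of 6 smooth muscle or 6 microglia markers had one. Trends on transcript length were stronger in KO than in WT libraries, with Spearman correlations across 13726 genes of −0.30, 0.29 and −0.14 in KO 1, 2 and 3 and 0.015 to 0.051 in the WT libraries. Trends on GC content were positive in every WT library (0.084 to 0.31) and negative in every KO library (−0.25 to −0.028), so their sign divided the groups being compared. Genes are not independent replicates, and these correlations describe the libraries. All libraries were kept, and values that rest on 1 library are given with and without it.

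The 8 genes spanned more than 2 orders of magnitude in level, from the precursor *Agt* to the receptors *Agtr1a* and *Agtr2*. In WT libraries the order by mean FPKM was *Agt*, *Ace*, *Atp6ap2*, *Agtrap*, *Enpep*, *Lnpep*, *Agtr2* and *Agtr1a*. Neighbours in that order did not overlap between libraries except *Enpep* with *Lnpep* and *Agtr2* with *Agtr1a*. In KO libraries *Lnpep* stood before *Enpep*, and *Agt* overlapped *Ace* and *Ace* overlapped *Atp6ap2* as well. The precursor and the converting enzyme thus had separate ranges in WT libraries and shared a range in KO libraries. The receptors *Agtr2* and *Agtr1a* were the 2 lowest of the 8 genes in both groups.

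**Figure D1:**
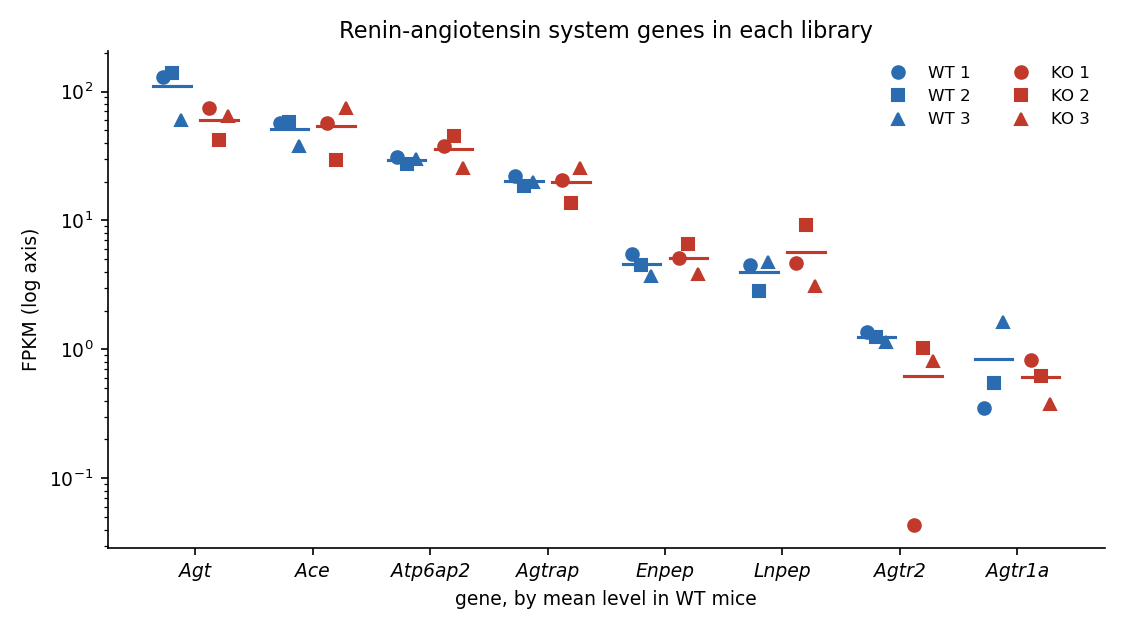
FPKM on a log10 axis for the 8 renin-angiotensin genes, with 1 point per library (3 WT, 3 KO) and a line at the mean of each group. *Agt* and *Ace* sit highest, and both receptors sit lowest, with the KO 1 value of *Agtr2* at 0.0432 FPKM.

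No gene of the system passed a limma adjusted p of 0.05 over the 14247 genes tested, nor did any other gene with all 6 libraries (0.0% of those tested). At an unadjusted limma p under 0.05, 1 of the 6 renin-angiotensin genes that averaged 1 FPKM or more passed, *Agt*, which was lower in KO mice. Over all genes tested 5.88% passed in either direction and 3.11% passed as lower in KO mice, so 1 of 6 is not set apart from that background. None of the 6 passed as higher, beside 2.77% of all genes tested. The WT and KO ranges overlapped for each of the 6, whereas they did not for 11.1% of genes tested (5.7% with all KO libraries below and 5.37% with all above). The median log2 fold change of the 6 genes was 0.07, beside −0.0062 over all genes tested. Both receptors fell under the 1 FPKM mean and were compared by exact permutation, in which 3 libraries against 3 cannot give a p under 0.1.

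**Figure D2:**
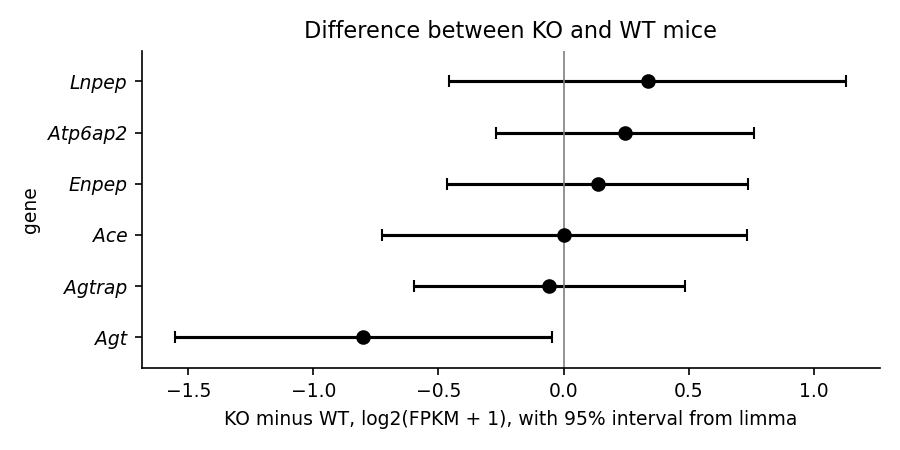
Log2 fold change of KO over WT mice on the log2(FPKM + 1) scale for the 6 tested genes, with points at the estimates and bars for the limma 95% confidence intervals. The interval of *Agt* ends at −0.05 and those of the other genes span 0.

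*Agt* encodes angiotensinogen, the only known precursor of the angiotensins. It had 130, 138 and 60.4 FPKM in WT 1, 2 and 3 and 75.1, 41.7 and 64.1 FPKM in KO 1, 2 and 3. WT 1 and WT 2 were above every KO library, and WT 3 was below KO 1 and KO 3, so the groups overlapped. The means were 109 ± 42.7 in WT and 60.3 ± 17.0 FPKM in KO libraries (SD, n = 3 each). The log2 fold change was −0.80 (SE 0.34, 95% confidence interval −1.55 to −0.05, limma p = 0.0392, adjusted p = 0.841), and the exact permutation p was 0.3. Its spread between libraries of a group was above that of 85.1% of the genes tested. The log2 fold change was −1.18 without WT 3 (limma unadjusted p = 0.003) and −0.56 without KO 2 (limma unadjusted p = 0.131). The limma unadjusted p also rose above 0.05 with WT 1, WT 2 or KO 3 left out, to 0.132, 0.155 and 0.0568, and the sign stayed negative in each case. With all libraries kept it was 0.0606 without the filter on low values and 0.0597 without the trend in the prior variance.

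The summed level of 8 astrocyte markers was 628 to 749 FPKM in WT libraries and 495 to 533 FPKM in KO libraries, and 7 of the 8 had a log2 fold change below 0. Of these, *Gfap* and *Gja1* (2 of 8) had an unadjusted limma p under 0.05, both lower in KO mice, beside 3.11% of all genes tested. In a bulk preparation fewer cells of a type and less RNA per cell cannot be told apart. Relative to the mean of the 8 markers on the log2(FPKM + 1) scale, *Agt* stood at 0.95, 1.52 and 0.12 in WT 1, 2 and 3 and at 0.74, −0.22 and 0.51 in KO 1, 2 and 3. The groups overlapped on this scale too, and the difference was −0.52 (exact permutation p = 0.4), from −0.19 without WT 2 to −0.89 without WT 3. Meningeal fibroblast markers also had lower sums in KO libraries, 910 to 1257 FPKM against 1330 to 2041 FPKM in WT libraries, and 1 of 6, *Col1a1*, had an unadjusted limma p under 0.05, lower in KO mice, beside 3.11% of all genes tested. The part of either cell type in the *Agt* difference was not tested.

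*Ace* encodes the converting enzyme that makes angiotensin II and also degrades bradykinin. It had 57.1, 58.3 and 37.6 FPKM in WT 1, 2 and 3 and 57.2, 29.5 and 74.3 FPKM in KO 1, 2 and 3. The highest and the lowest libraries were both KO, and the WT values lay between them. The means were 51.0 ± 11.6 FPKM and 53.7 ± 22.6 FPKM in WT and KO libraries (SD, n = 3 each). The log2 fold change was 0.00 (SE 0.33, 95% confidence interval −0.72 to 0.73, limma adjusted p = 0.999). The interval reaches changes of about 0.7 on the log2 scale either way, and the estimate ran from −0.28 without KO 3 to 0.38 without KO 2.

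Choroid plexus markers differed among the KO libraries in the same order as *Ace*. Their summed level was 8919, 3012 and 10758 FPKM in KO 1, 2 and 3 and 3402, 3000 and 2950 FPKM in WT 1, 2 and 3. The order of the WT libraries differed from that of *Ace*, and WT 1 and KO 1 had like *Ace* levels at unlike choroid plexus sums. KO 2, the KO library with the lowest *Ace*, was also the only KO library with a choroid plexus sum in the WT range. One of the 6 markers, *Kl*, had an unadjusted limma p under 0.05, higher in KO mice, beside 2.77% of all genes tested. Endothelial markers summed to 1064 to 1502 FPKM in WT and 946 to 1296 FPKM in KO libraries, with WT 3 and KO 2, the libraries of lowest *Ace* in their groups, also lowest, and 1 of 10, *Cdh5*, passed the unadjusted threshold, lower in KO mice, beside 3.11% of all genes tested. Relative to the mean of the endothelial markers, *Ace* stood at −0.81, −0.59 and −0.91 in WT 1, 2 and 3 and at −0.47, −1.12 and −0.02 in KO 1, 2 and 3 on the log2(FPKM + 1) scale. The difference was 0.23 with overlapping groups (exact permutation p = 0.6). The part of choroid plexus or endothelial cells in these *Ace* values was not tested.

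*Agtr2*, which encodes the type 2 angiotensin receptor, was the only one of the 8 genes whose groups did not overlap. It had 1.36, 1.24 and 1.14 FPKM in WT 1, 2 and 3 and 0.0432, 1.02 and 0.817 FPKM in KO 1, 2 and 3. Every KO library was below every WT library, and KO 1 was far below the rest. The means were 1.25 ± 0.108 in WT and 0.626 ± 0.514 FPKM in KO libraries (SD, n = 3 each), with an exact permutation p of 0.1, the smallest possible. Of the 1093 genes with a mean between 0.5 and 1 FPKM, 4.21% had all KO libraries below all WT libraries, which is 46 genes, and 9.61% had groups without overlap in either direction. The difference of means on the log2(FPKM + 1) scale was −0.52, and it was −0.23 without KO 1 and −0.71 without KO 2.

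The *Agtr2* values rest on few fragments. The spacing of low values puts them at about 45, 32 and 38 fragments in WT 1, 2 and 3 and at 1, 19 and 28 in KO 1, 2 and 3. For the single fragment of KO 1 the exact Poisson 95% interval ran from 0.00109 to 0.241 FPKM, entirely below the interval of every other library. The intervals of KO 2 (0.612 to 1.59 FPKM) and KO 3 (0.543 to 1.18 FPKM) overlapped those of all WT libraries, which together ran from 0.806 to 1.81 FPKM. These intervals cover counting error only. *Agtr2* in KO 3, the next lowest library, was 18.9-fold that in KO 1, with an exact 95% counting interval of 3.13 to 773, since KO 1 held 1 fragment. Values at or under 0.1 of the next lowest library were found for 0.444% of 13515 genes in KO 1, counting genes at 0.5 FPKM or more in every other library. In the other libraries the share was 0.104% to 0.407%. These genes had no upper limit on level, so the shares are not matched to the low level of *Agtr2*.

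*Agtr1a* encodes the main type 1 angiotensin receptor of rodents, which couples to Gq proteins and mediates constriction. It had 0.348, 0.549 and 1.62 FPKM in WT 1, 2 and 3 and 0.833, 0.617 and 0.375 FPKM in KO 1, 2 and 3. WT 3 was above all other libraries and WT 1 was below all others, so the KO range lay inside the WT range. The means were 0.838 ± 0.682 FPKM and 0.608 ± 0.229 FPKM in WT and KO libraries (SD, n = 3 each), with an exact permutation p of 0.9. The difference on the log2(FPKM + 1) scale was −0.14 with all libraries and 0.14 without WT 3. About 42 fragments stood behind WT 3, and 9 to 15 behind each of the others. The interval of WT 3 (1.17 to 2.19 FPKM) lay above those of WT 1 and WT 2, and these intervals cover counting error only. Of the 1093 genes with a mean between 0.5 and 1 FPKM, 4.12% had WT 3 at least as far above the next library as *Agtr1a* did, and 1.83% to 5.67% had another library so.

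The type 1 receptor has a near-identical copy in rodents, *Agtr1b*, and reads from shared stretches may have been split between them. *Agtr1b*, named as that copy after its values were seen, had 0.828, 0 and 0.206 FPKM in WT 1, 2 and 3 and 0, 0.147 and 0.241 FPKM in KO 1, 2 and 3. Sharing of reads between the copies was not tested, and the value of each is given as uncertain. The ratio of *Agtr2* to *Agtr1a* in FPKM was 3.90, 2.27 and 0.705 in WT 1, 2 and 3 and 0.0519, 1.65 and 2.18 in KO 1, 2 and 3. Type 2 receptor transcripts were thus above those of *Agtr1a* in WT 1, WT 2, KO 2 and KO 3, and below in WT 3 and KO 1, and the Poisson intervals of both receptors were separate only in WT 1 and KO 1.

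**Figure D3:**
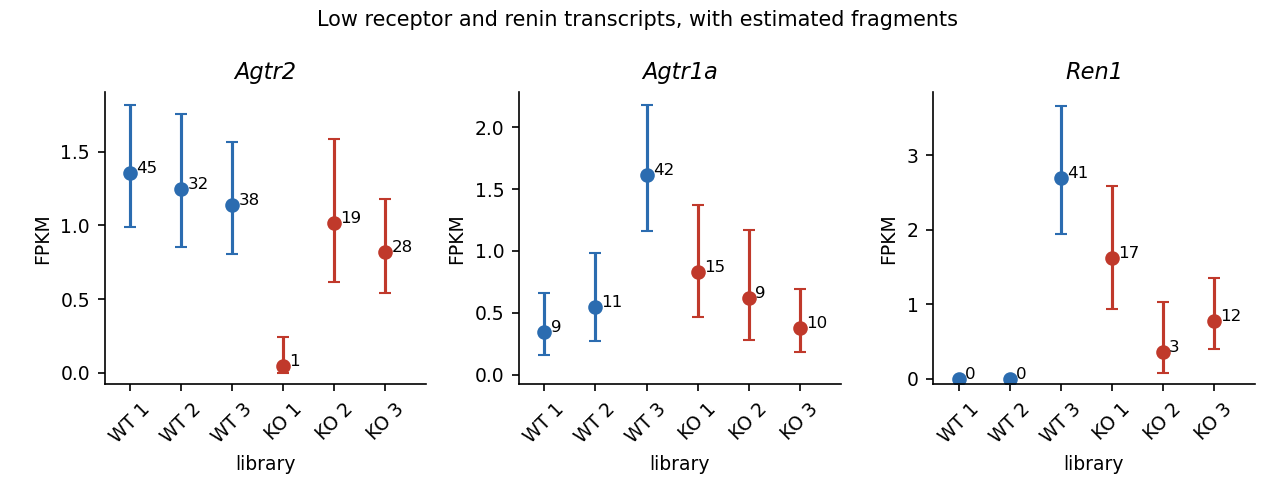
FPKM of *Agtr2*, *Agtr1a* and *Ren1* in each library, with the estimated number of fragments beside each point and exact Poisson 95% intervals as bars (none where no fragment was seen). KO 1 held 1 *Agtr2* fragment, WT 3 held 42 *Agtr1a* fragments, and WT 1 and WT 2 held 0 *Ren1* fragments.

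Renin itself, *Ren1*, was sparse and is named because it heads the pathway, after its values were seen. It had 0, 0 and 2.70 FPKM in WT 1, 2 and 3 and 1.62, 0.350 and 0.770 FPKM in KO 1, 2 and 3, from about 0, 0, 41, 17, 3 and 12 fragments. The counts of 0 allow up to 0.199 FPKM in WT 1 and 0.257 FPKM in WT 2. WT libraries held both the highest and the lowest values, and the exact permutation p was 0.8.

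The aminopeptidases *Enpep* and *Lnpep* act after angiotensin II is made. *Enpep* encodes aminopeptidase A, which removes the first residue of angiotensin II to give angiotensin III. It had 5.52, 4.48 and 3.69 FPKM in WT 1, 2 and 3 and 5.11, 6.53 and 3.83 FPKM in KO 1, 2 and 3, with means of 4.56 ± 0.915 and 5.16 ± 1.35 FPKM (SD, n = 3 each). The groups overlapped, and the log2 fold change was 0.14 (SE 0.27, 95% confidence interval −0.47 to 0.74, limma adjusted p = 0.962). Without KO 2 it was −0.021.

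In brain *Enpep* is known as a pericyte-enriched gene, and it was set against markers of that cell type. Relative to the mean of 10 pericyte markers on the log2(FPKM + 1) scale, it stood at −2.66, −2.86 and −2.82 in WT 1, 2 and 3 and at −2.44, −2.13 and −2.65 in KO 1, 2 and 3. Every KO library was above every WT library, by a narrow margin between KO 3 and WT 1, and the exact permutation p was 0.2 with a pseudocount of 0.1 and 0.2 with the median of the markers, so that this separation was lost under both. The difference was 0.38 (exact permutation p = 0.1, the smallest possible) and ran from 0.24 without KO 2 to 0.50 without KO 3. The markers' own mean was 0.24 lower in KO mice on this scale, and *Enpep* alone was 0.14 higher. The summed marker level was 863 to 1378 FPKM in WT and 903 to 1019 FPKM in KO libraries, and 2 of the 10 markers, *Anpep* and *Cspg4*, had an unadjusted limma p under 0.05, both lower in KO mice, beside 3.11% of all genes tested. *Agtr1a*, which brain pericytes also express, stood 0.10 higher relative to the same markers in KO mice, with overlapping groups (exact permutation p = 0.9).

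**Figure D4:**
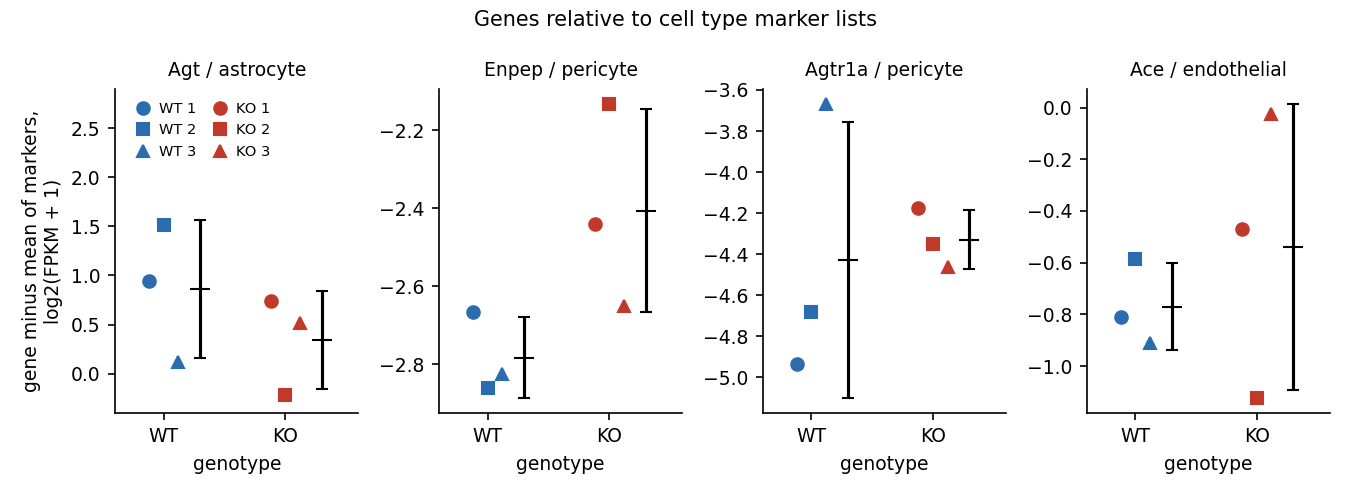
Level of *Agt*, *Enpep*, *Agtr1a* and *Ace* minus the mean of a cell type's markers on the log2(FPKM + 1) scale, with 1 point per library, bars at the mean ± SD and a separate vertical scale in each panel. The KO values of *Enpep* lie above the WT values of −2.86 to −2.66, and the groups overlap for the other 3 genes.

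*Lnpep* encodes insulin-regulated aminopeptidase, the known binding site of angiotensin IV, which also travels with glucose transporter vesicles. It had 4.48, 2.81 and 4.75 FPKM in WT 1, 2 and 3 and 4.71, 9.28 and 3.12 FPKM in KO 1, 2 and 3. KO 2 was above all other libraries, and the remaining KO values lay within the WT range. The means were 4.02 ± 1.05 and 5.70 ± 3.20 FPKM (SD, n = 3 each), with a log2 fold change of 0.34 (SE 0.36, 95% confidence interval −0.46 to 1.13, limma adjusted p = 0.923). Its longest transcript is 12052 bases, the longest of the 8 genes, and KO 2 was the KO library in which long transcripts read high. With each library corrected for trends on length and GC content the log2 fold change was 0.22, and KO 2 was still the highest library. Without KO 2, and without that correction, the log2 fold change was −0.024. The part of transcript length in the KO 2 value was not tested.

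*Atp6ap2* and *Agtrap* encode partners of the system's receptors and enzymes. *Atp6ap2* encodes the (pro)renin receptor, which is also an accessory subunit of the vacuolar proton pump. It had 31.1, 27.6 and 30.0 FPKM in WT 1, 2 and 3 and 37.8, 45.1 and 25.6 FPKM in KO 1, 2 and 3. KO 1 and KO 2 were above all WT libraries and KO 3 was below them, and the means were 29.6 ± 1.80 and 36.1 ± 9.86 FPKM (SD, n = 3 each). The log2 fold change was 0.25 (SE 0.23, 95% confidence interval −0.27 to 0.76, limma adjusted p = 0.910), and it was 0.07 after correction for length and GC content and 0.07 without KO 2.

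*Agtrap* encodes a membrane protein that binds the tail of the type 1 receptor and promotes its internalisation. It had 21.9, 18.6 and 19.9 FPKM in WT 1, 2 and 3 and 20.5, 13.6 and 25.5 FPKM in KO 1, 2 and 3. The WT values lay within the KO range, and the means were 20.1 ± 1.68 and 19.9 ± 5.94 FPKM (SD, n = 3 each). The log2 fold change was −0.06 (SE 0.24, 95% confidence interval −0.60 to 0.49, limma adjusted p = 0.985). Its sign turned without KO 2, to 0.18, and with the correction for length and GC content, to 0.025.

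KO 2 was the highest or the lowest library for all 6 genes tested of the 8, a pattern looked at after the values were seen. It was lowest for *Agt*, *Ace* and *Agtrap* and highest for *Enpep*, *Lnpep* and *Atp6ap2*. Across the 14247 genes tested KO 2 was an extreme library for 46.3%, and each other library for 25.1% to 35.6%. On the log2(FPKM + 1) scale KO 2 departed from the mean of the 6 libraries by −0.88 for *Agt*, by −0.74 for *Ace* and by 0.89 for *Lnpep*. After correction for length and GC content these departures were −0.66, −0.69 and 0.45, and KO 2 was still extreme for all 6 genes, beside 44.7% of 13726 genes. The departure of *Lnpep* thus shrank most, and that of *Ace* changed little.

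**Figure D5:**
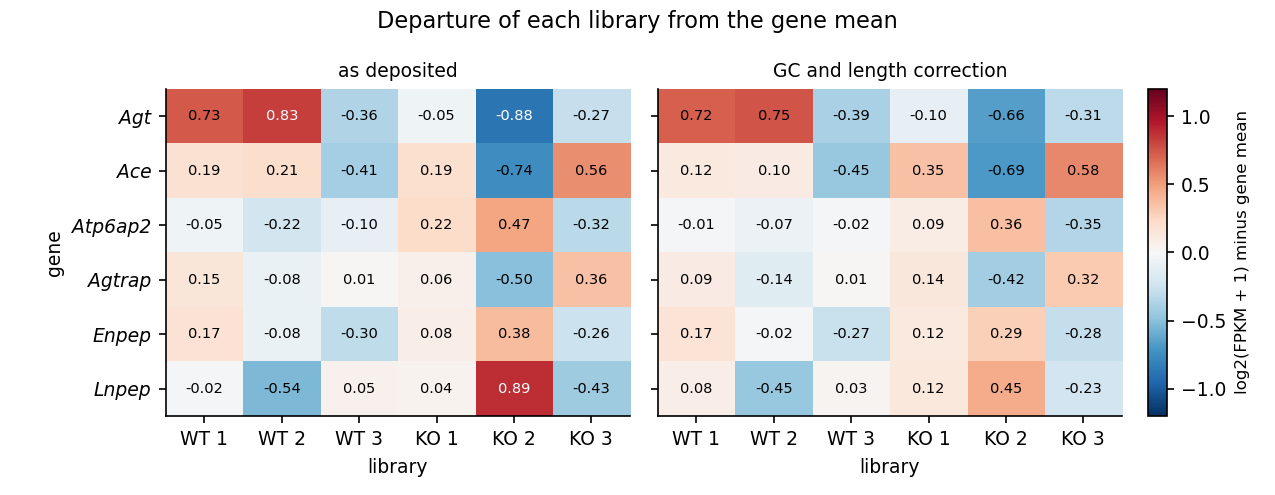
Departure of each library from the mean of the 6 libraries on the log2(FPKM + 1) scale for the 6 tested genes, as deposited (left) and after each library was corrected for trends on GC content and transcript length (right), with red above and blue below the mean. As deposited, KO 2 stands at −0.88 for *Agt*, −0.74 for *Ace* and 0.89 for *Lnpep*, and after correction at −0.66, −0.69 and 0.45.

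Profiles across the 6 libraries closest to those of the system's genes were found by the root mean square difference of log2(FPKM + 1) values centred on each gene's mean. For *Agt* they were *Cyp26b1* (0.13) and *Aebp1* (0.14), beside the 0.61 by which *Agt* itself varied. For *Ace*, which varied by 0.44, they were *Cpt2* (0.06) and *Pdk2* (0.08), and for *Lnpep*, which varied by 0.46, they were *Zfp280c* (0.09) and *Frrs1l* (0.10). The closest to *Enpep* were *Zfp451* and *Ints2*, to *Atp6ap2* *Luc7l2* and *2610305D13Rik*, and to *Agtrap* *Emc3* and *Tspan9*, at differences of 0.03 to 0.06 after rounding. With 6 libraries such nearness is a description of shared library variation.

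Among 19 other genes of the renin-angiotensin system, 12 were tested and only *Anpep* passed the unadjusted limma p of 0.05, beside 5.88% of all genes tested. *Anpep* encodes aminopeptidase N, which turns angiotensin III into angiotensin IV, and belongs to the pericyte markers above and to the M1 aminopeptidases below as well. It was lower in all KO libraries, with a log2 fold change of −0.46 (SE 0.21, limma adjusted p = 0.841), and −0.38 (limma unadjusted p = 0.0749) with the correction for GC content and length. The most abundant gene of the list was *Ctsa*, a carboxypeptidase, at 54.6 ± 8.43 FPKM in WT and 47.4 ± 8.77 FPKM in KO libraries (SD, n = 3 each). *Ctsg*, *Klk1* and *Mrgprd* were listed at 0 in every library.

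Of 19 genes that carry the type 1 receptor signal, all were tested and 3 passed the unadjusted limma p of 0.05, all lower in KO mice, beside 3.11% of all genes tested, with a list median of −0.14. *Gna12* encodes a G protein alpha subunit, and it had 26.7, 30.3 and 30.9 FPKM in WT and 18.9, 16.7 and 25.6 FPKM in KO libraries. *Adrbk1*, the kinase GRK2 that phosphorylates active receptors, had 34.9, 31.9 and 32.0 FPKM in WT and 18.2, 25.0 and 18.2 FPKM in KO libraries. The groups did not overlap for either gene, as for 11.1% of all genes tested, and the log2 fold changes were −0.52 (SE 0.21) and −0.67 (SE 0.20). *Plcb3*, a phospholipase C that makes the second messengers of Gq receptors, had overlapping groups and a log2 fold change of −0.58 (SE 0.24). All 3 had a limma adjusted p over 0.05, as every gene did. With the correction for GC content and length *Gna12* stood at −0.34 (limma unadjusted p = 0.107) and *Plcb3* at −0.40 (limma unadjusted p = 0.0959), and *Adrbk1* had no annotated length under that symbol. The most abundant gene of the list, *Rgs5*, a brake on Gq signals and a pericyte marker, had a log2 fold change of 0.24 with overlapping groups.

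Of 12 genes known to be induced by angiotensin II, 11 were tested and 1 passed the unadjusted limma p of 0.05, beside 5.88% of all genes tested, with a list median of −0.28. This was *Egr1*, an immediate early transcription factor, with 12.7, 22.0 and 26.1 FPKM in WT 1, 2 and 3 and 12.9, 13.2 and 9.47 FPKM in KO 1, 2 and 3. The WT 1 value lay within the KO range, and the log2 fold change was −0.68 (SE 0.28, limma adjusted p over 0.05), and −0.50 with the correction for GC content and length (limma unadjusted p = 0.103). *Ctgf*, the most abundant gene of this list, encodes a matrix-associated growth factor and had 58.9 ± 22.8 FPKM in WT and 56.2 ± 36.1 FPKM in KO libraries (SD, n = 3 each).

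The enzyme families of *Enpep*, *Lnpep* and *Atp6ap2* were read in the same way. Of 11 M1 aminopeptidases, *Enpep* and *Lnpep* among them, 10 were tested, *Anpep* was again the only one with an unadjusted limma p under 0.05, beside 5.88% of all genes tested, and the list median was 0.16. *Lta4h*, the most abundant member, had 27.1 ± 2.67 FPKM in WT and 31.3 ± 6.33 FPKM in KO libraries (SD, n = 3 each), and *Lvrn* was listed at 0 in every library. All 18 genes listed for the vacuolar proton pump, *Atp6ap2* among them, were tested, and their median log2 fold change was 0.04. One, *Atp6v1d*, a subunit of the rotor's central stalk, had 55.5, 61.8 and 65.0 FPKM in WT 1, 2 and 3 and 107, 76.5 and 76.9 FPKM in KO 1, 2 and 3. Every KO library was above every WT library, with a log2 fold change of 0.49 (SE 0.21, limma unadjusted p = 0.0393, adjusted p = 0.841), as 5.37% of all genes tested had all KO libraries above. With the correction for GC content and length it was 0.38 (limma unadjusted p = 0.0886). The most abundant subunit, *Atp6v0c*, which forms the proton ring, had 349 ± 56.7 FPKM in WT and 336 ± 39.7 FPKM in KO libraries (SD, n = 3 each).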

How the data were processed

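Brain microvessels were isolated by homogenisation, dextran centrifugation and a cell strainer, and directional libraries were sequenced as paired ends. The authors trimmed reads with FASTX_Trimmer and BBMap, mapped them with TopHat (to mm10, per the labels) and deposited FPKM values per gene symbol. The FPKM estimator and any scaling between libraries are not given in the sources used here. The authors used DESeq2 for differential expression, and no counts were used here.

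Values were taken as log2(FPKM + 1), so fold changes of low genes are understated. The 14247 symbols that averaged 1 FPKM or more were tested with limma 3.58.1 in R 4.3.3 (trended prior variance) with Benjamini-Hochberg adjustment over all of them. Single values were also compared with two-sided exact permutation tests. The labels and methods give 3 mice per group. Limma SEs, intervals and p-values rest on the spread between libraries of a group, drawn toward the trend over all genes tested. For a gene of wide spread such as *Agt*, the limma SE and interval are therefore narrower than its own spread would give. The script was tested on simulated data. Depth was estimated from the steps between low FPKM values and annotated transcript lengths. Fragment numbers of *Agtr2*, *Agtr1a* and *Ren1*, and their intervals, used a transcript length fitted to bring the numbers nearest to whole ones. These lengths were 2.92, 2.27 and 1.33 kb, beside longest annotated transcripts of 3283, 2199 and 1592 bases. The genes named were the 8 members, *Gadd45gip1*, genes of the pathway lists with an unadjusted limma p under 0.05, the most abundant gene of each list, markers under the same p, and the 2 nearest profiles of each tested member. Pathway-list genes at 0 in every library were named as well, and *Ren1* and *Agtr1b* were named after their values were seen. The members and lists were chosen with earlier results of these data known. Sequences were taken from RefSeq. Alternatives were a pseudocount of 0.1, no filter or a mean of 5 FPKM, trimmed-mean, median and quantile scaling, no trend, a replicate block, correction for GC content and length (loess, span 0.3) and leaving out each library. Some genes of the pathway lists are not reported here by name.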

Additional observations from a re-analysis of the deposited data

How the results depend on the processing

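None of the 8 genes passed a limma adjusted p of 0.05 under any alternative run, and the smallest was 0.518, for *Agt* without KO 2. The sign turned for *Ace* with quantile normalization (−0.029) and for *Agtrap* with the correction for GC content and length (0.025). Leaving out single libraries, the log2 fold change ran from −0.28 to 0.38 for *Ace*, −0.33 to 0.14 for *Agtr1a*, −0.021 to 0.30 for *Enpep*, −0.024 to 0.63 for *Lnpep* and −0.25 to 0.18 for *Agtrap*, and so changed sign. It ran from −1.18 to −0.56 for *Agt*, −0.71 to −0.23 for *Agtr2* and 0.07 to 0.47 for *Atp6ap2*, without a change of sign. Among the pathway genes it ran from −0.0062 to 0.39 for *Rgs5*, −0.70 to 0.30 for *Ctgf* and −0.19 to 0.025 for *Atp6v0c*. Relative to markers it ran from −0.15 to 0.48 for *Agtr1a* and −0.027 to 0.52 for *Ace*. The cause of these turns was not tested. The *Agtr2* difference was −1.35 with a pseudocount of 0.1.

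Genes with an unadjusted limma p under 0.05 numbered 838, and 450 without WT 2, 510 without KO 1 and 1871 without KO 2. Genes past a limma adjusted p of 0.05 numbered 0 with all libraries, and 1 without WT 3, 4 without KO 2 and 4 without KO 3. Pathway-list genes with an unadjusted limma p under 0.05 numbered 6, and 1 to 9 with a library left out (1 without WT 2, 2 without KO 1). With the correction for GC content and length, 5 of these 6 had a value. All 5 then had a limma unadjusted p over 0.05, from 0.0749 to 0.107. The filter at 5 FPKM leaves out *Enpep* and *Lnpep*. For *Agtr1a* and *Agtr2* the filter at 5 FPKM, quantile normalization, the untrended fit, the block and the GC and length correction were not run.

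Replicate numbers came from the sample titles, and the columns of the deposited values carry other numbers. Libraries that share a title number had correlations of their deviations of 0.037, 0.027 and 0.0016, and WT 1 was closer to KO 3 (0.046). Values this small cannot tell whether the numbers pair the samples. With the replicate block 871 genes had an unadjusted limma p under 0.05, and *Agt* stayed at −0.80 (adjusted p = 0.743). The smallest limma adjusted p over all genes tested was 0.0507 with the block and 0.841 without it. At these depths and fitted lengths, the values of *Agtr2* and *Agtr1a* rest on an estimated 45 fragments or fewer a library.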
